A study of Mus musculus with 9 samples.

Results

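The genes of the granin family and of dense-core vesicle cargo processing were followed across control N2a cells and N2a cells with lowered Arf1. Chga, Chgb, Scg2, Scg3, Scg5, Vgf, Pcsk1, Pcsk2, Cpe and Pcsk1n were taken by gene name from the deposited table, where all 10 were found among 21899 genes. N2a is the Neuro-2a line of mouse neuroblastoma, labelled as a brain neuroblast. The control cells carried a short hairpin RNA against luciferase (shlucif), and Arf1 was knocked down with either of 2 hairpins, named shArf1-1 and shArf1-2. Each group has 3 RNA-seq libraries and no further treatment. Arf1 encodes a small GTPase that recruits coat proteins to Golgi membranes, and the study lowered it to ask about lipid metabolism. All groups come from 1 cell line, and the labels do not say whether replicates were separate cultures, so p-values measure only the spread between these libraries, which may be technical.

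Granins are acidic proteins that aggregate in the trans-Golgi network and are packed, with peptide hormones and amines, into dense-core vesicles, which release their content when the cell is stimulated. On the way, prohormone convertases cut the granins and other precursors after pairs of basic residues, and carboxypeptidase E removes the basic residues that remain. Chromogranins are long-used markers of neuroendocrine tumours, neuroblastoma among them, and their genes are known targets of cAMP signalling through the cAMP response element.

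That element, TGACGTCA, reads the same on either strand and was searched for in windows from 250 bases before to 50 bases after the gene start, taken from RefSeq for GRCm38.p6. Windows were held for 8 of the 10 genes, and Vgf and Cpe had none. The whole element was in 3 of the 8 windows, those of Chgb, Scg2 and Pcsk1, against 1.79% of 32851 windows of the same length. The shorter TGACG, which the whole element contains, was found on either strand in 7 of the 8 windows, against 20.8% of all windows. TATAAA was in 1 of the 8, that of Chga, where it lies after the start, at bases 6 to 11 (13.6% of all windows). CCAAT was in 2 of the 8, those of Scg3 and Pcsk2 (37.4% of all windows). So that whole and partial elements can be compared, 30 bases are shown around the whole element or, where there is none, around TGACG on the gene's strand within 100 bases before the start, for 4 granin genes and Pcsk1. Capitals mark TGACGTCA or TGACG. They lie at chr2:132781559-132781588 (plus strand, Chgb), chr1:79440076-79440105 (minus strand, Scg2), chr13:75089768-75089797 (plus strand, Pcsk1), chr12:102554886-102554915 (plus strand, Chga) and chr9:75684068-75684097 (minus strand, Scg3).
Chgb: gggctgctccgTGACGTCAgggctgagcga
Scg2: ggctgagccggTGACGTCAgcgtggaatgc
Pcsk1: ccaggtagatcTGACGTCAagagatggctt
Chga: gggcggtcctaTGACGtaatttcctgggtg
Scg3: cgctgggtcgcTGACGccatcctcacgcct
The whole element began at base -72 in Chgb, -68 in Scg2 and -78 in Pcsk1, counted from the RefSeq start. The GENCODE spans of Chgb and Scg2 printed with their levels begin before the RefSeq starts, so the stretches shown for these 2 genes lie inside those spans. A match in these letters is a description of the window and shows no binding.

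The libraries held 11182479 to 15594615 counts. Levels are given as deposited FPKM, the count scaled by gene length and by library total. Changes are log2 fold changes from edgeR's quasi-likelihood test on the counts of 12448 genes that passed a filter on low counts, and a gene passed where its p, adjusted over all of them by Benjamini-Hochberg, was under 0.05. TMM scaling moved the libraries by factors of 0.962 to 1.03, so a fold change can differ slightly from the ratio of FPKM means. Arf1 (ENSMUSG00000048076; chr11:59211412-59228270, minus strand of GRCm38) was at 328, 316 and 328 FPKM in the shlucif libraries, at 130.3, 128 and 127 FPKM with shArf1-1, and at 166, 157 and 171 FPKM with shArf1-2. Its log2 fold change was -1.39 (95% interval -1.50 to -1.29) with shArf1-1 and -1.05 (-1.15 to -0.95) with shArf1-2. Of 14 neuronal and neuroblast markers, 12 had counts in every library of each group and Nefm was at 0 throughout, with a summed level of 3630 to 3730 CPM in shlucif, 3910 to 4330 CPM with shArf1-1 and 4140 to 4230 CPM with shArf1-2. Of the 12 tested, 7 passed as higher and 2 as lower with each hairpin. With both hairpins, 6 passed as higher and 2, Map2 and Prph, as lower. Among all tested genes, 33.1% passed as higher and 34.4% as lower with shArf1-1. With shArf1-2 these shares were 30.9% and 32.6%, and the share passing with both was not counted. Of 14 macrophage and microglia markers, 13 had counts in every shlucif library and their summed level was 261 to 312 CPM there, against 0.799 to 1.03 CPM with shArf1-1 and 0.614 to 1.41 CPM with shArf1-2. Ctss, Aif1, Cx3cr1, C1qa, C1qb, Itgam and Spi1 were at 0 in all 6 Arf1-deficient libraries. The 8 fibroblast markers summed to 43.1 to 43.9 CPM in shlucif, 15.8 to 16.1 CPM with shArf1-1 and 21.8 to 23.3 CPM with shArf1-2, and the 9 astrocyte and oligodendrocyte markers to 41.5 to 42 CPM, 29.4 to 35.1 CPM and 33.4 to 36.4 CPM. The shlucif libraries thus stood apart as a group, every change against them below moves with these markers, and the part of other cell types in those changes was not tested. In RNA from whole cultures, fewer cells of a type and less RNA per cell cannot be told apart.

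The granin and processing genes did not move as a block. Chgb and Chga, the chromogranins, and Pcsk2, a convertase, were higher in Arf1-deficient cells, while Vgf, Scg2, Scg3 and Cpe were lower. With shArf1-1, 9 of the 10 genes could be tested and 7 passed the threshold, 3 higher and 4 lower. Of all genes tested, 67.5% passed in this comparison, 33.1% higher and 34.4% lower. With shArf1-2, again 9 were tested and 7 passed, 3 higher and 4 lower, where 63.4% of all genes passed, 30.9% higher and 32.6% lower. The number of genes that passed is thus near that of genes in general, and what sets the members apart from each other is direction and size. The CPM of the groups did not overlap for 7 of the 9 tested members in either comparison, against 69.4% of all tested genes with shArf1-1 and 67.8% with shArf1-2. The 9 had a median log2 fold change of 0.03 for shArf1-1 and -0.11 for shArf1-2. Without sign, the median size was 0.48 and 0.36 for the 9, and 0.40 and 0.35 for all tested genes. Both comparisons use the same 3 shlucif libraries. Leaving out any 1 library, 7 or 8 members passed with shArf1-1 and 6 to 8 with shArf1-2. Where 8 passed, the filter had kept Pcsk1, so that 10 were tested, and Pcsk1 was the added call. The 6, also of 10 tested, came without shlucif replicate 3.

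**Figure D1:**
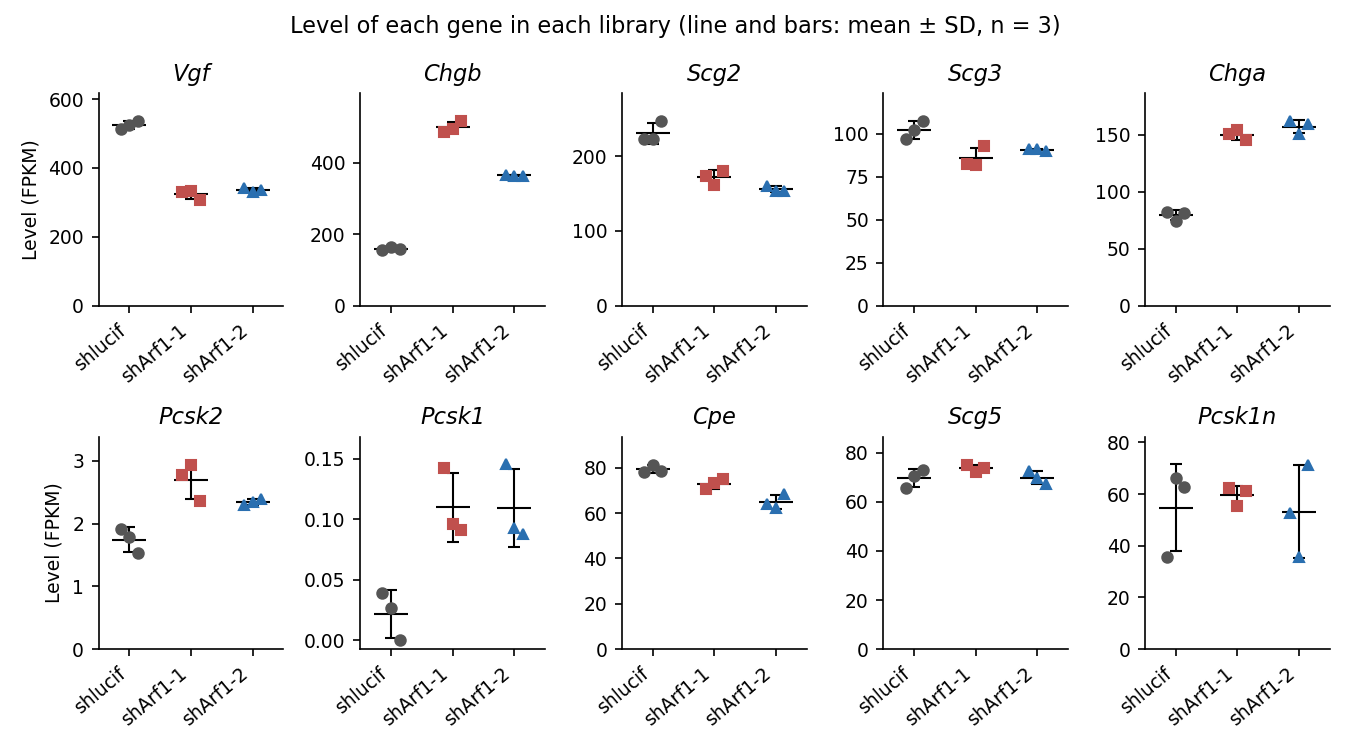
Level of each of the 10 genes in FPKM (vertical axis, linear) in the 3 libraries of each hairpin group, with 1 point per library and a line and bars for the mean ± SD. Chgb runs from 157 to 163 FPKM in shlucif and from 364 to 517 FPKM in the Arf1-deficient libraries, Vgf moves the other way, and Pcsk1n has a low library in shlucif (35.5 FPKM) and in shArf1-2 (35.7 FPKM).

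Chgb (chromogranin B; ENSMUSG00000027350; chr2:132781278-132795079, plus strand) changed most of the 9. It was at 157, 163 and 159.7 FPKM in the shlucif libraries. The shArf1-1 libraries had 486, 496 and 517 FPKM and the shArf1-2 libraries 367, 364 and 364 FPKM. The 3 groups did not overlap, shArf1-1 was highest, and the gene rose from place 230 of 21899 by mean FPKM in shlucif to place 49 with shArf1-1 and place 85 with shArf1-2. The log2 fold change was 1.59 ± 0.05 (standard error, 95% interval 1.49 to 1.69, edgeR adjusted p = 5.44e-25) with shArf1-1, a size that 1.69% of tested genes reached in that direction. With shArf1-2 it was 1.12 ± 0.05 (1.02 to 1.22, edgeR adjusted p = 1.24e-20), reached by 3.48% of tested genes.

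Chga (chromogranin A; ENSMUSG00000021194; chr12:102554969-102565028, plus strand), the granin measured in blood as a tumour marker, was at 82.3, 74.5 and 81.3 FPKM in shlucif. It was at 151, 154 and 145 FPKM with shArf1-1 and at 162, 150.3 and 159 FPKM with shArf1-2. All 6 Arf1-deficient libraries lay above the 3 shlucif libraries, and the hairpins overlapped. Its log2 fold change was 0.86 ± 0.05 (95% interval 0.75 to 0.97, edgeR adjusted p = 4.63e-16) with shArf1-1 and 0.91 ± 0.05 (0.80 to 1.02, edgeR adjusted p = 1.17e-16) with shArf1-2. As many as 7.29% and 5.46% of tested genes rose at least as far.

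Vgf (ENSMUSG00000037428; chr5:137026392-137033351, plus strand), a granin-like precursor of several neuropeptides whose gene is induced by nerve growth factor, had the highest level of the 10 genes in shlucif, at 512, 525 and 536 FPKM. It was at 331, 333 and 306 FPKM with shArf1-1 and at 341, 331 and 336 FPKM with shArf1-2. The shlucif libraries lay above the 6 others, which overlapped with each other. Vgf fell by 0.75 on the log2 scale with shArf1-1 (standard error 0.05, edgeR adjusted p = 1.64e-15) and fell by 0.71 with shArf1-2 (standard error 0.05, edgeR adjusted p = 8e-15). Among tested genes, 15.2% and 13.1% fell at least as far.

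Scg2 (secretogranin II; ENSMUSG00000050711; chr1:79434669-79440120, minus strand), the precursor of the peptide secretoneurin, was at 223, 222 and 247 FPKM in shlucif. With shArf1-1 it was at 173, 161 and 180.1 FPKM and with shArf1-2 at 160.4, 153 and 153 FPKM. No library of 1 group reached into another, with shArf1-2 lowest. Scg2 fell by 0.48 on the log2 scale with shArf1-1 (standard error 0.05, edgeR adjusted p = 9.28e-10) and fell by 0.64 with shArf1-2 (standard error 0.05, edgeR adjusted p = 1.32e-12). The whole cAMP response element shown above is in the windows of Scg2, Chgb and Pcsk1. Scg2 was lower, Chgb was higher, and Pcsk1 had more counts in Arf1-deficient libraries, near the limit of detection. A part of the element in these changes was not tested.

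Scg3 (secretogranin III; ENSMUSG00000032181; chr9:75643189-75684056, minus strand), which binds cholesterol-rich vesicle membrane and holds chromogranin A there, was at 97.1, 102 and 107 FPKM in shlucif. It was at 82.3, 82.1 and 92.9 FPKM with shArf1-1 and at 91.3, 90.9 and 90.2 FPKM with shArf1-2. The lowest shlucif library stood only a little above the highest Arf1-deficient library. Scg3 fell by 0.31 (standard error 0.05, edgeR adjusted p = 6.39e-06) and fell by 0.24 (standard error 0.05, edgeR adjusted p = 0.00019) on the log2 scale with shArf1-1 and shArf1-2, changes that 31.0% and 32.6% of tested genes reached or passed.

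Of the convertases, Pcsk2 (ENSMUSG00000027419; chr2:143546156-143816285, plus strand) encodes the enzyme that makes the smaller, late products of many precursors. Its level was low, at 1.92, 1.79 and 1.53 FPKM in shlucif (165 to 209 counts), 2.77, 2.94 and 2.36 FPKM with shArf1-1 and 2.30, 2.35 and 2.39 FPKM with shArf1-2. Each Arf1-deficient library lay above each shlucif library. The log2 fold change was 0.56 ± 0.11 (95% interval 0.33 to 0.80, edgeR adjusted p = 5.64e-05) with shArf1-1 and 0.36 ± 0.12 (0.12 to 0.59, edgeR adjusted p = 0.00747) with shArf1-2. Without shlucif replicate 3, which is the lowest of its group, the shArf1-2 value was 0.27 and no longer passed (edgeR adjusted p = 0.0657). The antisense genes Pcsk2os1 and Pcsk2os2 overlap exons of Pcsk2 in GENCODE, and whether counting used strand is not given in the sources used here, so reads of the pair cannot be told apart.

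Pcsk1 (ENSMUSG00000021587; chr13:75089826-75134861, plus strand), the convertase that makes the first cuts in proinsulin and proopiomelanocortin, was near the limit of detection. It had 3, 2 and 0 counts in the shlucif libraries, 10, 6 and 8 counts with shArf1-1 and 12, 7 and 7 counts with shArf1-2. The filter on low counts removed it, so it has no fold change in the fit. Summed over a group, 24 counts with shArf1-1 against 5 with shlucif gave a ratio of 4.98 after division by library totals (95% interval 1.86 to 16.7, counting error only) and 26 counts with shArf1-2 gave 5.02 (1.90 to 16.7). Leaving out shlucif replicate 1 raised the ratios to 8.25 and 8.31, and leaving out shlucif replicate 3 lowered them to 3.32 and 3.34. With no filter, edgeR's adjusted p was 0.0169 and 0.0182, and DESeq2's was 0.0312 and 0.0357. At a mean of 0.022, 0.11 and 0.11 FPKM in the 3 groups, Pcsk1 stayed far below Pcsk2, whose mean was 79.9 times higher in shlucif and 24.5 and 21.5 times higher with shArf1-1 and shArf1-2.

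Cpe (carboxypeptidase E; ENSMUSG00000037852; chr8:64592542-64693054, minus strand), which trims the basic residues that convertases leave, was at 78.1, 81.4 and 78.5 FPKM in shlucif. It was at 70.6, 73.2 and 75.0 FPKM with shArf1-1 and at 64.0, 62.4 and 68.6 FPKM with shArf1-2. The groups did not overlap and shArf1-2 was lowest, over a narrow range. Cpe fell by 0.17 on the log2 scale with shArf1-1 (standard error 0.05, edgeR adjusted p = 0.0047) and fell by 0.36 with shArf1-2 (standard error 0.05, edgeR adjusted p = 4.75e-07). A fall of the first size or more was seen in 38.6% of tested genes.

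The partners of the convertases gave no call. Scg5 (ENSMUSG00000023236; chr2:113776362-113829121, minus strand) encodes 7B2, the chaperone that pro-PC2, the Pcsk2 product, needs to become active. It was at 65.5, 70.5 and 73.0 FPKM in shlucif, 75.2, 72.3 and 73.6 FPKM with shArf1-1 and 72.7, 69.6 and 67.5 FPKM with shArf1-2, and the ranges overlapped. The log2 fold change was 0.03 (95% interval -0.09 to 0.15, edgeR adjusted p = 0.705) with shArf1-1 and -0.07 (-0.19 to 0.05, edgeR adjusted p = 0.336) with shArf1-2. Neither interval reaches the size of the Chga change. The sign of these small values turned for shArf1-1 without shlucif replicate 1 (-0.01) and for shArf1-2 under library-size scaling (0.0046). The FPKM of Scg5 was 34.2 to 47.7 times that of Pcsk2 across shlucif libraries, 24.6 to 31.2 times with shArf1-1 and 28.2 to 31.6 times with shArf1-2.

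Pcsk1n (ENSMUSG00000039278; chrX:7919822-7924410, plus strand) encodes proSAAS, a granin-like inhibitor of the Pcsk1 product. It was at 35.5, 66.2 and 62.7 FPKM in shlucif, 62.3, 55.4 and 61.1 FPKM with shArf1-1 and 52.7, 35.7 and 71.4 FPKM with shArf1-2. A single low library in shlucif (replicate 1) and in shArf1-2 (replicate 2) gave these groups a coefficient of variation of 30.7% and 33.5%, against 6.19% in shArf1-1. The log2 fold change was 0.07 with an interval of -0.71 to 0.85 (edgeR adjusted p = 0.858) with shArf1-1 and -0.11 with an interval of -0.88 to 0.67 (edgeR adjusted p = 0.797) with shArf1-2. These intervals are several times wider than those of Scg5, and they include the changes of Scg2 with the same hairpins (-0.48 and -0.64). The sign turned without shlucif replicate 1 for shArf1-1 (-0.16), and for shArf1-2 without shArf1-2 replicate 2 (0.12), shlucif replicate 2 (0.04) or shlucif replicate 3 (0.0053). Eras, on the opposite strand, overlaps an exon of Pcsk1n and had 0 or 1 count in every library.

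**Figure D2:**
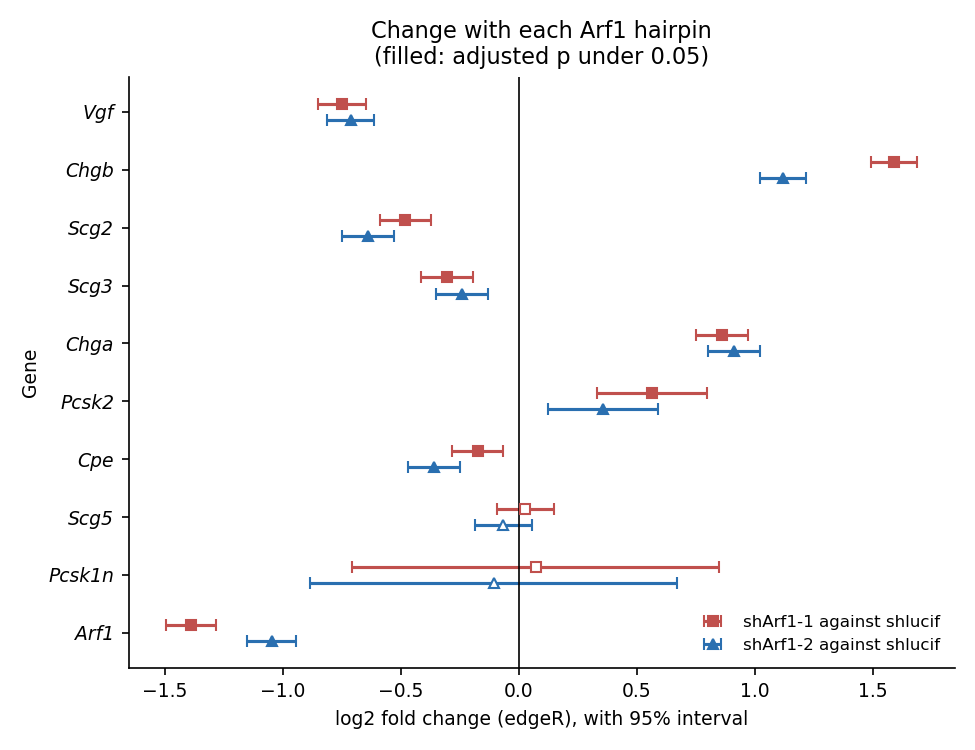
Log2 fold change of the 9 tested genes and of Arf1 (horizontal axis) with shArf1-1 (squares) and shArf1-2 (triangles) against shlucif, with 95% intervals from edgeR and filled symbols for an adjusted p under 0.05. Chgb lies farthest to the right at 1.59 and 1.12, Vgf farthest to the left among the granins at -0.75 and -0.71, and the wide intervals of Pcsk1n cross 0.

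The order of the levels changed with the hairpin. In shlucif the order by mean FPKM was Vgf, Scg2, Chgb, Scg3, Chga, Cpe, Scg5, Pcsk1n, Pcsk2 and Pcsk1, where the ranges of Chga and Cpe overlapped, as did those of Scg5 and Pcsk1n. With shArf1-1 it was Chgb, Vgf, Scg2, Chga, Scg3, Scg5, Cpe, Pcsk1n, Pcsk2 and Pcsk1, with overlap of Scg5 and Cpe. With shArf1-2 it was Chgb, Vgf, Chga, Scg2, Scg3, Scg5, Cpe, Pcsk1n, Pcsk2 and Pcsk1, with overlap of Chga with Scg2, of Scg5 with Cpe and of Cpe with Pcsk1n. Chgb thus passed Vgf in each Arf1-deficient group. The ratio of Chgb to Vgf FPKM within a library was 0.31 ± 0.01 in shlucif, 1.55 ± 0.12 with shArf1-1 and 1.09 ± 0.01 with shArf1-2 (SD, n = 3 each). This ratio within a library does not depend on how libraries are scaled, and it shows unequal change of both genes.

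In shlucif the 10 genes together took 0.353% ± 0.012 of all counts. That share was 0.387% ± 0.0025 with shArf1-1 and 0.349% ± 0.0076 with shArf1-2 (SD, n = 3 each). The shArf1-1 libraries (0.386% to 0.390%) all lay above those of shlucif (0.341% to 0.364%), while those of shArf1-2 overlapped shlucif. The make-up of the sum moved much with both hairpins. Of the summed FPKM of the 10, Vgf made up 40.3% ± 0.57 in shlucif, 22.5% ± 1.23 with shArf1-1 and 25.9% ± 0.35 with shArf1-2 (SD, n = 3 each). Chgb made up 12.3% ± 0.37, 34.7% ± 0.84 and 28.2% ± 0.63 (SD, n = 3 each) in the same order. The share of Chga went from 6.11% to 10.4% and 12.1%, and that of Scg2 from 17.7% to 11.9% and 12.0%. Scg5 held 5.35%, 5.12% and 5.40%.

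**Figure D3:**
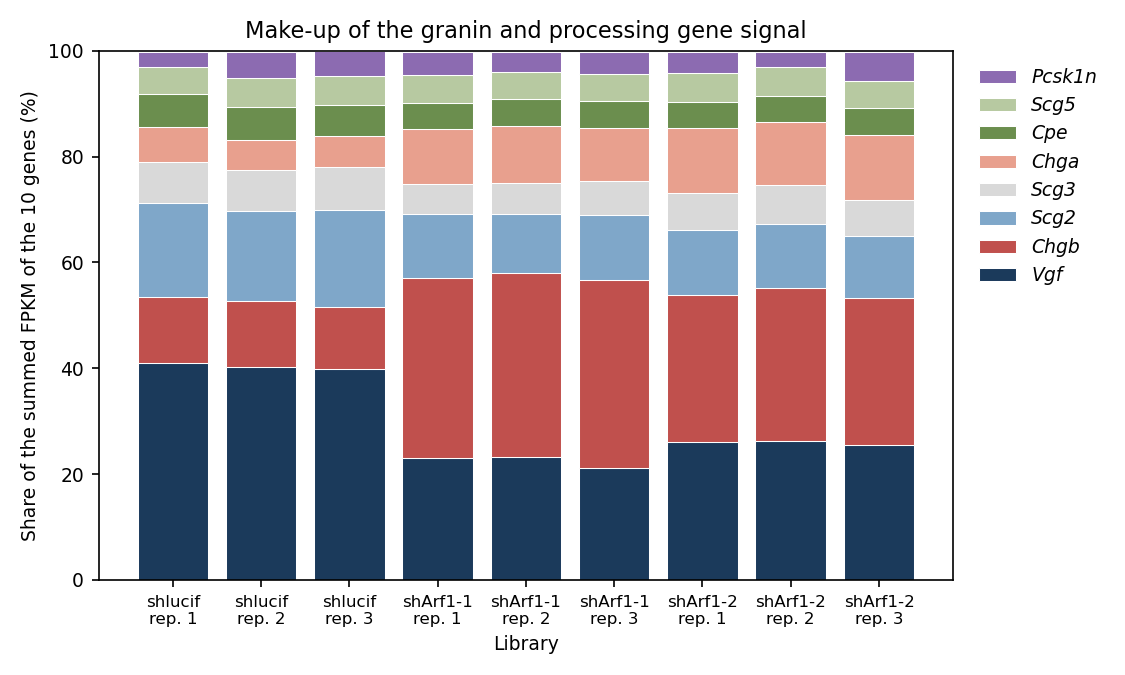
Share of the summed FPKM of the 10 genes held by each gene (vertical axis, percent) in each of the 9 libraries, with Pcsk2 and Pcsk1 too small to draw. Vgf holds 40.3% on average in shlucif and Chgb 12.3%, while in the Arf1-deficient libraries Chgb is the largest share, at 34.7% with shArf1-1 and 28.2% with shArf1-2.

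The hairpins were also compared with each other. Of the 9 tested genes, 3 passed and all were lower with shArf1-2 than with shArf1-1, in a comparison where 14.4% of all tested genes passed, 6.98% higher and 7.46% lower. The CPM of the hairpins did not overlap for 4 of the 9, against 29.9% of all tested genes. Chgb, higher in Arf1-deficient cells, was less so with shArf1-2, by a log2 difference of -0.47 ± 0.05 (95% interval -0.57 to -0.38, edgeR adjusted p = 9.01e-09). Arf1 itself was higher with shArf1-2 than with shArf1-1, by 0.34 ± 0.05 (0.24 to 0.45, edgeR adjusted p = 1.16e-05). Cpe was lower with shArf1-2, by -0.18 ± 0.05 (-0.29 to -0.07, edgeR adjusted p = 0.0178), and Scg2 by -0.16 ± 0.05 (-0.27 to -0.05, edgeR adjusted p = 0.0442). The larger change of Scg2 and Cpe was thus with shArf1-2, and that of Chgb with shArf1-1. The count of 3 fell to 1, Chgb alone, without shArf1-1 replicate 3, shArf1-2 replicate 1 or shArf1-2 replicate 2. Cpe then had edgeR adjusted p = 0.0558, 0.0757 and 0.118, and Scg2 had 0.162, 0.0595 and 0.16. Scg2 also lost its call without shArf1-1 replicate 1 (edgeR adjusted p = 0.145) and without shArf1-2 replicate 3 (edgeR adjusted p = 0.132). Library-size and upper-quartile scaling took it to an edgeR adjusted p of 0.0662 and 0.0683. Chga differed by 0.05 (-0.06 to 0.16), Vgf by 0.04 (-0.06 to 0.14), Scg3 by 0.06 (-0.05 to 0.17) and Pcsk2 by -0.21 (-0.43 to 0.02) on the log2 scale, none of which passed.

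Other enzymes of precursor processing, a list of 12 with 10 tested, included 3 higher and 6 lower with shArf1-1 and 2 higher and 5 lower with shArf1-2, with a median log2 fold change of -0.32 and -0.36. Among all tested genes, 67.5% passed with shArf1-1 and 63.4% with shArf1-2. These shares stand beside the counts of this list and of those below. Furin, the convertase of the constitutive pathway, averaged 19.1 ± 0.41, 15.1 ± 0.79 and 12.4 ± 0.57 FPKM (SD, n = 3 each) in shlucif, shArf1-1 and shArf1-2, with log2 fold changes of -0.39 and -0.70. Cpd, the carboxypeptidase that works beside it, had -0.67 and -0.51. Pcsk6 and Pcsk7, convertases of the same family, had 0.89 and 0.63, and 0.76 and 0.63. Pam, which amidates peptides, had 0.20 with shArf1-1, past the threshold, and -0.08 with shArf1-2, not past it. Ctsl, a cathepsin that can also cut prohormones, had -2.10 and -2.04. Qpct, which cyclizes amino-terminal glutamine, had 38 to 71 counts in shlucif and 0 in all 6 others, at least 13.8-fold lower against a floor of 3 counts per library. Ctsl and Qpct are also made by macrophages, whose markers fell in the same libraries as given above. The part of other cell types was not tested for these or for any other change against shlucif.

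Of 21 genes of vesicle biogenesis and membrane, 20 were tested, with 7 higher and 8 lower with shArf1-1 and 6 higher and 9 lower with shArf1-2. The share of all tested genes that passed was 67.5% and 63.4% in the same order. Ptprn (IA-2), a transmembrane protein of the vesicle, averaged 59.3 ± 2.71, 38.4 ± 3.35 and 44.5 ± 1.92 FPKM (SD, n = 3 each) in shlucif, shArf1-1 and shArf1-2, with log2 fold changes of -0.68 and -0.49. Stx6, a SNARE of immature vesicles, had -0.62 and -0.43, Tpd52 had -0.47 and -0.47, and Eipr1 had -0.37 and -0.51. Syt4, a synaptotagmin of immature vesicles, had 0.86 and 0.72, Ica1 had 0.69 and 0.57, Vti1a had 0.55 and 0.35, and Bicdl1 had 0.37 and 0.37. Of 19 genes of transport and release, 11 were tested, with 4 higher and 4 lower with shArf1-1 and 3 higher and 4 lower with shArf1-2. The same shares of all tested genes apply to this list. Rab27a and Myrip, which tether vesicles to actin, had 0.53 and 0.29, and 0.66 and 0.48. Rab3d had -0.42 and -0.30. The largest falls of this list were in Cadps and Cadps2, which passed as lower with both hairpins but were below 1 FPKM. Cadps had 33 to 46 counts in shlucif, 0 to 4 with shArf1-1 and 0 to 5 with shArf1-2. Cadps2 had 22 to 25 counts in shlucif, 0 to 2 with shArf1-1 and 0 with shArf1-2.

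Cargo genes of a further list were mostly at few or no counts, unlike the peptide precursors Vgf and Scg2 above. Of 37 genes for peptides, neurotrophins and amine synthesis, 7 passed the filter on low counts, with 2 higher and 1 lower with shArf1-1 and 3 higher and 1 lower with shArf1-2. Adm2 (adrenomedullin 2) was the most abundant tested one, at 12.2 ± 1.18, 23.4 ± 2.18 and 24.1 ± 2.03 FPKM (SD, n = 3 each) in shlucif, shArf1-1 and shArf1-2, with log2 fold changes of 0.88 and 0.91. Dbh, which makes noradrenaline inside the vesicle, had 2.20 and 1.42. Adm had -0.99 and -1.47. As given above, 67.5% and 63.4% of all tested genes passed with shArf1-1 and shArf1-2.

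Transcriptional regulators known from neuroendocrine genes were a list of 17, of which 15 were tested, 7 higher and 4 lower with shArf1-1 and 8 higher and 4 lower with shArf1-2. For all tested genes the share that passed was 67.5% and 63.4%. Rest, the repressor that silences neuronal genes, granin genes among them, outside neurons, was at 4.10, 5.59 and 4.55 FPKM in shlucif, 2.35, 2.03 and 2.59 FPKM with shArf1-1 and 2.05, 2.38 and 2.16 FPKM with shArf1-2. It was lower in each Arf1-deficient library than in each shlucif library, with log2 fold changes of -1.07 ± 0.11 (edgeR adjusted p = 1.69e-10) and -1.18 ± 0.11 (edgeR adjusted p = 2.06e-11). In the same libraries Chga and Chgb were higher, and Vgf, Scg2 and Scg3 were lower. A part of Rest, or of the regulators below, in these changes was not tested. Insm1, a zinc finger factor of neuroendocrine differentiation, was at 5.69, 5.57 and 5.87 FPKM in shlucif, 20.8, 19.5 and 21.4 FPKM with shArf1-1 and 17.3, 15.7 and 19.6 FPKM with shArf1-2. It was higher in all 6, with log2 fold changes of 1.80 ± 0.09 (edgeR adjusted p = 6.57e-19) and 1.55 ± 0.09 (edgeR adjusted p = 6.31e-17). Gata3 (1.72 and 1.33), a factor of the sympathetic lineage, and the corepressor Rcor2 (1.39 and 1.40) were also higher, while Hand2 did not pass (0.58 and 0.54). Rcor1 passed in opposite directions (-0.15 and 0.19). Ehmt2 passed only with shArf1-1 (-0.19) and Sin3a only with shArf1-2 (-0.15). Srrm4, a splicing regulator that acts on Rest transcripts, had 0.63 and 0.69. Creb1, whose product binds the cAMP response element, had 0.54 and 0.33, its coactivator Crtc1 had 0.73 and 0.75, and its coactivator Crtc2 had -0.33 and -0.33. Crem passed only with shArf1-2 (-0.50), and Atf1 did not pass. Neurod1 had at most 1 count in any library.

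**Figure D4:**
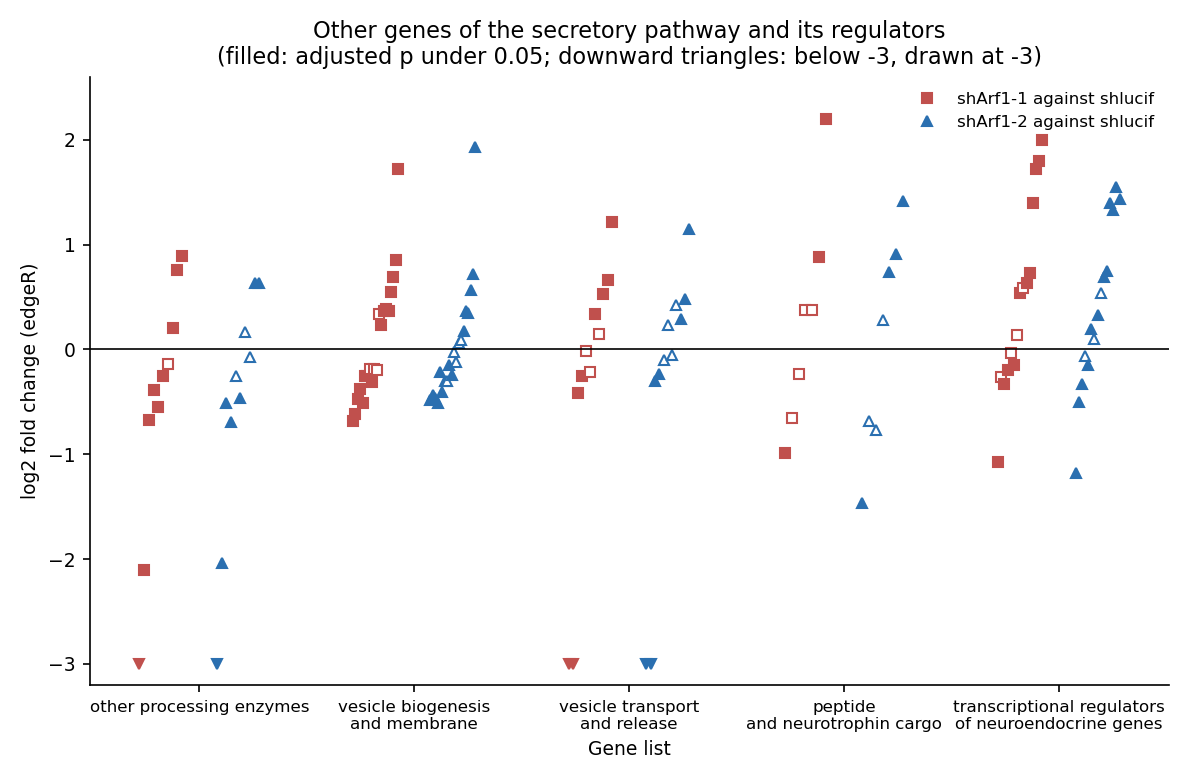
Log2 fold change (vertical axis, edgeR) of every tested gene of 5 lists, with shArf1-1 as squares and shArf1-2 as triangles, filled for an adjusted p under 0.05, and downward triangles at the lower edge for values below the axis. Each list holds genes on either side of 0, and among the regulators Insm1 and Gata3 lie well above 0 with shArf1-1 (1.80 and 1.72) and Rest lies lowest (-1.07).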

How the data were processed

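The authors deposited a table with a read count and an FPKM value per gene and library. The counts are whole numbers without normalization, and the FPKM equal count divided by listed gene length and library total. Per the labels, RNA was poly(A) selected, fragmented and randomly primed. The submitters' processing notes name mm10. Aligner, counting tool and strand setting are not given in the sources used here. The table's coordinates differ from GRCm38, so GENCODE vM21 positions by identifier are given. Columns headed shArf2 in the table were read as shArf1-2, and 8 lines that hold no gene were left out.

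The main test ran edgeR 4.0.16 in R 4.3.3 (filterByExpr, TMM, glmQLFit with robust estimation, glmQLFTest) in 1 fit of 3 groups. The threshold was an adjusted p under 0.05. Other lists are named by gene where a member had at least 1 FPKM, passed in the same direction with both hairpins and did not overlap shlucif. Up to 4 were taken per direction by mean change, and any regulator could be named. Pam, Cadps and Cadps2 were chosen after their values were seen. Some genes that meet the rule are not reported here by name. Members and lists were chosen with earlier results of these data known. DESeq2 1.42.0 and limma 3.58.1 on log2(FPKM + 1) and log2(FPKM + 0.1), other scalings and filters, a replicate block and leaving out each library were alternatives. The fit was also run on simulated counts in which few genes changed. That setting is unlike these data, so the run says little about the calls here.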

Additional observations from a re-analysis of the deposited data

Results flagged for a closer look

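Between the hairpins, Chgb differed by -0.47 on the log2 scale, Cpe by -0.18 and Scg2 by -0.16 (shArf1-2 minus shArf1-1, edgeR adjusted p = 9.01e-09, 0.0178 and 0.0442). These 3 genes are listed because the change with shArf1-1 and that with shArf1-2 differed by the test of the difference itself. Chgb rose with each hairpin and rose more with shArf1-1, whereas Cpe and Scg2 fell with each and fell more with shArf1-2. Groups of 3 libraries are too small for a test of single outlying libraries.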

How the results depend on the processing

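With both hairpins, the count of members past the threshold stayed between 7 and 8 over 10 alternatives of tool, scaling, filter, samples or block, and the calls of Chga, Chgb, Vgf, Scg2, Scg3 and Cpe against shlucif held in all 19, leave-one-out included. Leaving out 1 library gave 7 to 8 members with shArf1-1, 6 to 8 with shArf1-2 and 1 to 3 between the hairpins. Every count of 8 includes Pcsk1, tested where a setting kept it. Pcsk1 was tested in 9 alternatives that kept it and passed in 8 for each hairpin, the exception being without shlucif replicate 3 (edgeR adjusted p = 0.0647 and 0.0691). Between the hairpins, the call of Scg2 was also lost with limma on log2(FPKM + 1) and log2(FPKM + 0.1) (adjusted p = 0.113 and 0.112). The count of all genes past the threshold there, 1798, was 1159 without shArf1-1 replicate 1 and 1194 without shArf1-2 replicate 1. Signs turned only for values that did not pass: Scg5 with shArf1-2 under library size (0.0046), limma on log2(FPKM + 1) (0.0051) and limma on log2(FPKM + 0.1) (0.0052), and, leaving out 1 library, Scg5 with shArf1-1 (-0.011 to 0.064), Pcsk1n with shArf1-1 (-0.16 to 0.22) and with shArf1-2 (-0.38 to 0.12), and between the hairpins Vgf (-0.0047 to 0.062) and Pcsk1n (-0.45 to 0.047). The cause was not tested. With TMM-scaled CPM per kilobase the level of Vgf in shlucif was 540.1 in place of 524 FPKM. Same-numbered libraries showed no large shared deviation (mean correlation 0.007 over 9 pairs, -0.082 to 0.094). This cannot show whether they were prepared together. The replicate block left the counts of members at 7, 7 and 3. Depth limits Pcsk1, and the spread between libraries limits Pcsk1n.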

Other observations

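Pcsk1n varied between libraries of a group far more than genes of its level. Of 1559 genes with a mean between 27.4 and 110 FPKM in shlucif, none but Pcsk1n itself had a coefficient of variation as large as its 30.7%, where the median was 3.92%. In shArf1-2, 3 of 1682 genes between 26.6 and 106 FPKM reached its 33.5%, namely Pcsk1n, Lars2 and Hnrnpab, a mitochondrial leucyl-tRNA synthetase and an RNA-binding protein named after their values were seen. In shArf1-1, 32.4% of 1499 genes were as variable. Hnrnpab was at 51.7, 94.7 and 75.2 FPKM in shlucif and at 71.8, 59.6 and 116 FPKM in shArf1-2, and its lowest libraries, shlucif replicate 1 and shArf1-2 replicate 2, are those in which Pcsk1n was lowest. Lars2 had its highest shlucif value in replicate 1, at 124, 85.5 and 78.7 FPKM, and was at 68.9, 56.4 and 164 FPKM in shArf1-2, lowest in replicate 2. With shArf1-1, Hnrnpab was at 109, 84.8 and 113 FPKM and Lars2 at 87.3, 12.2 and 91.2 FPKM. In that group replicate 2 was lowest for Hnrnpab, Lars2 and Pcsk1n. With 3 libraries per group, genes can easily share their lowest library, so these matches alone do not link the genes. The cause was not tested.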
